A study of Mus musculus with 32 samples.

Results

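The X-linked genes described here are the 53 that were listed with allele-specific expression in Ctcf degron cells and in none of the other 3 tables of the series. They were found by comparing gene names between the 4 tables. The Ctcf table listed 1006 genes, and each of the other 3 tables listed the same 953 genes, all of which were also in the Ctcf table. In gene order along the X, 51 of the 53 genes formed an unbroken stretch at the distal end, from Phka2 to G530011O06Rik. The last gene of the other tables was Gpr64, immediately proximal of Phka2, and 0 genes of those tables lay beyond it. The remaining 2 names were microRNA entries, Mir1906-1, which could not be placed, and Mir1906-2, which was placed elsewhere on the X, and both were listed at 0 throughout. The genes are called distal X genes below.

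The measurements come from XEN cells, which are cultured stem cells of the endoderm that forms outside the embryo proper. They derive from a 129S1/SvImj by JF1/Ms cross, so that differences between the parental genomes separate RNA of the active X (Xa) from RNA of the inactive X (Xi). Both groups carried the genotype Ctcf degron and were treated for 48 h with DMSO, the solvent control, or with dTAG, a compound used to direct tagged proteins to degradation. The labels name 2 samples per treatment and no clone, promoter or tagging design, and do not say whether samples came from separate cultures. The deposited table holds 1 merged FPKM value per gene, allele and treatment (fragments normalised to the length of the transcript and the size of the library). Replicates therefore cannot be compared, and neither an SD nor a p-value is given for any difference. Ctcf itself is autosomal and was not analysed here, so the extent of its depletion is not shown.

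In female mammalian cells Xist RNA coats a single X chromosome and most of its genes are silenced, while a minority, the escape genes, stay expressed from it. Ctcf is a zinc finger protein that binds DNA and holds cohesin-extruded chromatin loops, and on the inactive X it is known at escape genes and at the repeat that separates its megadomains. The distal end of the mouse X leads to the pseudoautosomal region, the stretch shared with the Y. Its genes include enzymes, splicing and chromatin factors, vesicle traffic proteins and innate immune receptors.

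The X-linked genes that mark extraembryonic or other cells were read in the same table. Of 7 listed extraembryonic genes 7 passed the expression filter, and their summed Xa plus Xi FPKM was 533 with DMSO and 574 with dTAG. Most of the sum came from Bex1, at 409 and 397 FPKM on Xa. Cited1 was at 60.3 and 102 FPKM on Xa, and Gpc3 at 18.1 and 17.1 FPKM. On Xa 4 of the 7 were higher with dTAG. Of 5 listed trophoblast genes 4 were at 0, with sums of 0.306 and 0.683 FPKM, and the 4 listed genes of embryonic stem cells were all at 0. Autosomal endoderm markers were not analysed here. Xist was listed at 18.6 FPKM on Xi with DMSO and 18.7 FPKM with dTAG.

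A gene was counted as expressed, and called tested below, when the mean over the treatments of its summed FPKM on Xa and Xi was at least 1. Of the 53 genes 18 were tested, 12 were listed above 0 but below this level, and 23 were listed at 0 in all 4 columns. Ctps2 stood just inside the level at 1.31 FPKM and Mospd2 just outside it at 0.976 FPKM. The genes at 0 included the innate receptors Tlr7 and Tlr8 and the tooth enamel gene Amelx. Tmsb4x, which encodes a widely expressed actin-binding peptide, was also listed at 0. A listed 0 is therefore not read as absence of expression.

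Promoter sequence was taken from RefSeq (build GRCm38.p6), another build than the authors' mm9, for 44 of the 53 genes. The stretches below lie immediately before the annotated start, hold no exon of the GENCODE M21 annotation, and are written 5′ to 3′ on the strand of the gene, with CpG dinucleotides in capitals. They are shown because Piga and Zrsr2 were the distal genes with an Xi share of 10% or more, and because S100g and Rbbp7 had the highest Xa levels. Their positions in GRCm38.p6 are chrX:164419580-164419779 (Piga, plus strand), chrX:163958667-163958866 (Zrsr2, minus strand), chrX:162964600-162964799 (S100g, minus strand) and chrX:162760172-162760371 (Rbbp7, plus strand). In RefSeq the stretch before Zrsr2 also overlaps the span of Gm38561, and that before S100g the span of Ctps2.
Piga: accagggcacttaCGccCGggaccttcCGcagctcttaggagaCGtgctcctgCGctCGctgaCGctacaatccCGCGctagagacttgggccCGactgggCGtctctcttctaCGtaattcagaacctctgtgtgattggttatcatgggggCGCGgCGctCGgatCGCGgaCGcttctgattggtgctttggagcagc
Zrsr2: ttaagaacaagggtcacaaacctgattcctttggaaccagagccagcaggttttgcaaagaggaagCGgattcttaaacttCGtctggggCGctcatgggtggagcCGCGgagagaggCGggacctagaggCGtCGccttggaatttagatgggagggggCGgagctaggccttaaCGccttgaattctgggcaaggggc
S100g: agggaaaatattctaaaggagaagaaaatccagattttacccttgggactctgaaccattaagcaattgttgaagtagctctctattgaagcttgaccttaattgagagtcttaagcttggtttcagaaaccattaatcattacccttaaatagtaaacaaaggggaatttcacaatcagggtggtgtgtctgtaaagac
Rbbp7: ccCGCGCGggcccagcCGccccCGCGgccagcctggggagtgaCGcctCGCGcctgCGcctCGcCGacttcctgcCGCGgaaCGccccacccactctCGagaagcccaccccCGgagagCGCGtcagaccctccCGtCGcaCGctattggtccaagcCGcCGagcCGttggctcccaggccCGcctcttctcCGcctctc

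These 200-base stretches held 19 CpGs before Piga, 10 before Zrsr2, 27 before Rbbp7 and 0 before S100g. The 200 bases before S100g, the most highly expressed distal gene, thus held no CpG, while Piga and Zrsr2 lay between S100g and Rbbp7. Over whole windows of 300 bases (250 before to 50 after the start, the window with most CpGs per gene), the 17 tested distal genes with a sequence had a median of 23 CpGs and a range of 3 to 40. Piga had 28 and Zrsr2 had 18. The 27 distal genes below the expression level had a median of 9 (0 to 27), and 229 other tested genes of the table had a median of 19 (2 to 57).

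**Figure D1:**
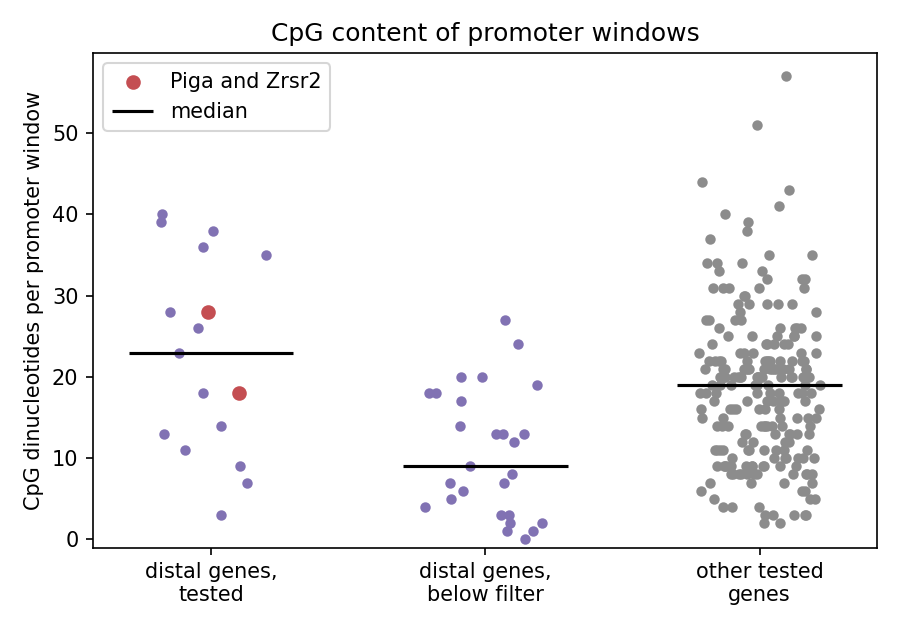
CpG dinucleotides (y axis) in the 300-base promoter window of each gene, for tested distal genes, distal genes below the expression level and the other tested X-linked genes. Points are genes, spread sideways at random, and lines are medians at 23, 9 and 19. Piga (28) and Zrsr2 (18) lie within the range of the tested distal genes.

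All promoter windows of each gene were searched on both strands for the core letters of the Ctcf binding motif. A gene was counted when any of its windows held the letters, not only the window with most CpGs. For Arhgap6 and Mid1, both below the expression level, the window with most CpGs did not hold them. The letters were found in 0 of the 17 tested distal genes with a sequence. They were found in 7 of the 27 distal genes below the expression level and in 24 of the 229 other tested genes (10.5%). Over all 1046 X-linked genes with a window the share was 7.84%. A match describes letters and shows no binding, and a window without it shows nothing about Ctcf at the gene.

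Expression from the inactive X was listed for few distal genes. With DMSO, 2 of 18 tested genes, Zrsr2 and Piga, had any Xi FPKM, beside 63 of all 277 tested genes. For both genes the Xi share, which is Xi FPKM as a percentage of the sum over Xa and Xi, was at least 10%. Of the 277 genes tested in all, 13.4% reached that share with DMSO and 13% with dTAG, so the 2 of 18 distal genes under each treatment (11.1%) were near the background. Of the 18 genes 13 were listed at 0 on Xi under both treatments (72.2%), against 71.5% of all tested genes. In bulk RNA such as this, fewer cells expressing the Xi copy and less RNA per cell cannot be told apart.

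Zrsr2 encodes a splicing factor that recognises the 3′ splice site of minor introns. On Xi it was listed at 2.86 FPKM with DMSO and 2.43 FPKM with dTAG, and on Xa at 6.55 and 7.35 FPKM. Its Xi share was 30.4% with DMSO and 24.8% with dTAG, a change of -5.60 points. The Xi difference was -0.20 and the Xa difference 0.16, and at equal median Xa FPKM of the treatments they were -0.43 and -0.10, so the direction on Xa turned with the scaling. Differences are of log2(FPKM + 0.5), in which 0.5 is a pseudocount that allows values of 0, and all were below the size of 1 used for a change.

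Piga encodes the catalytic subunit of the enzyme that starts the synthesis of glycosylphosphatidylinositol membrane anchors. On Xi it was listed at 1.15 FPKM with DMSO and 1.24 FPKM with dTAG, and on Xa at 3.16 and 2.59 FPKM. The Xi share was 26.7% with DMSO and 32.4% with dTAG, higher by 5.62 points. The differences were 0.07 on Xi and -0.24 on Xa, and at equal median Xa FPKM that on Xi turned to -0.12. Zrsr2 and Piga therefore moved in opposite directions by about the same number of points. A move of 5 points or more was seen for 7.58% of all tested genes. In the order of shares over the 277 genes, Zrsr2 was 13th with DMSO and 18th with dTAG, and Piga was 18th and 9th.

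The tested genes around Zrsr2 and Piga were listed at 0 on Xi with DMSO. These were the 12 tested genes from Yy2, the nearest proximal gene at 10% or more, up to Zrsr2, the 2 between Zrsr2 and Piga, and the 7 beyond Piga. The genes between Zrsr2 and Piga, the ubiquitin ligase gene Siah1b and the nuclear iron-binding protein gene Pir, were at 0 on Xi under both treatments. So were 6 of the 7 tested genes beyond Piga to the end of the X, the exception being Fancb with dTAG. Neighbours below the expression level were at 0 on Xi as well, but with so little or no signal on Xa that nothing is read from it. Among them were Car5b next to Zrsr2 and, on the sides of Piga, Figf (0.530 and 0.057 FPKM on Xa) and Asb11 (0 on both alleles). Of the 13 listed genes of a list of known escape genes 9 were tested, and 8 of these, Xist among them, had a share of 10% or more under each treatment. The exception, Kdm6a, was listed at 0 on Xi under both treatments, beside 2.34 and 2.61 FPKM on Xa. A listed 0 on Xi is therefore not read as silencing. The distal members of the list, Mid1 and Car5b, gave no Xi value: Mid1 was at 0 on both alleles, and Car5b was at 0.130 and 0.208 FPKM on Xa and 0 on Xi.

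With dTAG 3 further distal genes had Xi values above 0, which made 5 of 18. Of all 277 tested genes 67 had such a value with dTAG and 63 with DMSO. S100g encodes calbindin-D9k, a small vitamin D-dependent calcium-binding protein. It was listed at 0 on Xi with DMSO and at 0.647 FPKM with dTAG, beside 271 FPKM on Xa, an Xi share of 0.238%. Its Xi change of 1.20 was the only rise on Xi among the 277 tested genes (0.361%), and 0.361% fell. The step starts from a listed 0 and is 0.72 with a pseudocount of 1 and 0.96 when changes are taken relative to the median Xa change, both below the size of 1. Of the 16 tested genes with 100 FPKM or more on Xa with dTAG, 7, S100g among them, had an Xi value above 0 with dTAG, and 6 had one with DMSO. The 7 included Ndufa1, Rps4x and Wbp5, with Xi shares of 31.9%, 18.3% and 39.8% with dTAG. Ngfrap1 went from a listed 0 on Xi to 0.333 FPKM (share 0.080%), while Rpl36a went from 0.147 FPKM to a listed 0.

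Ap1s2, a subunit of the clathrin adaptor AP-1, went from a listed 0 on Xi to 0.067 FPKM (share 2.33%). Ap1s2 overlaps Zrsr2 in the annotation, and the libraries kept no strand, so reads in the overlap cannot be told apart from those of Zrsr2. Fancb, a component of the Fanconi anaemia DNA repair complex, went from a listed 0 to 0.042 FPKM (share 1.29%), and its annotated span overlaps that of Mospd2. Neither change on Xi (0.18 and 0.12) reached the size of 1. The summed Xi FPKM of the 18 genes was 4.02 with DMSO and 4.42 with dTAG, or 3.77 with dTAG without S100g. That of all 277 tested genes was 597 with DMSO and 504 with dTAG.

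**Figure D2:**
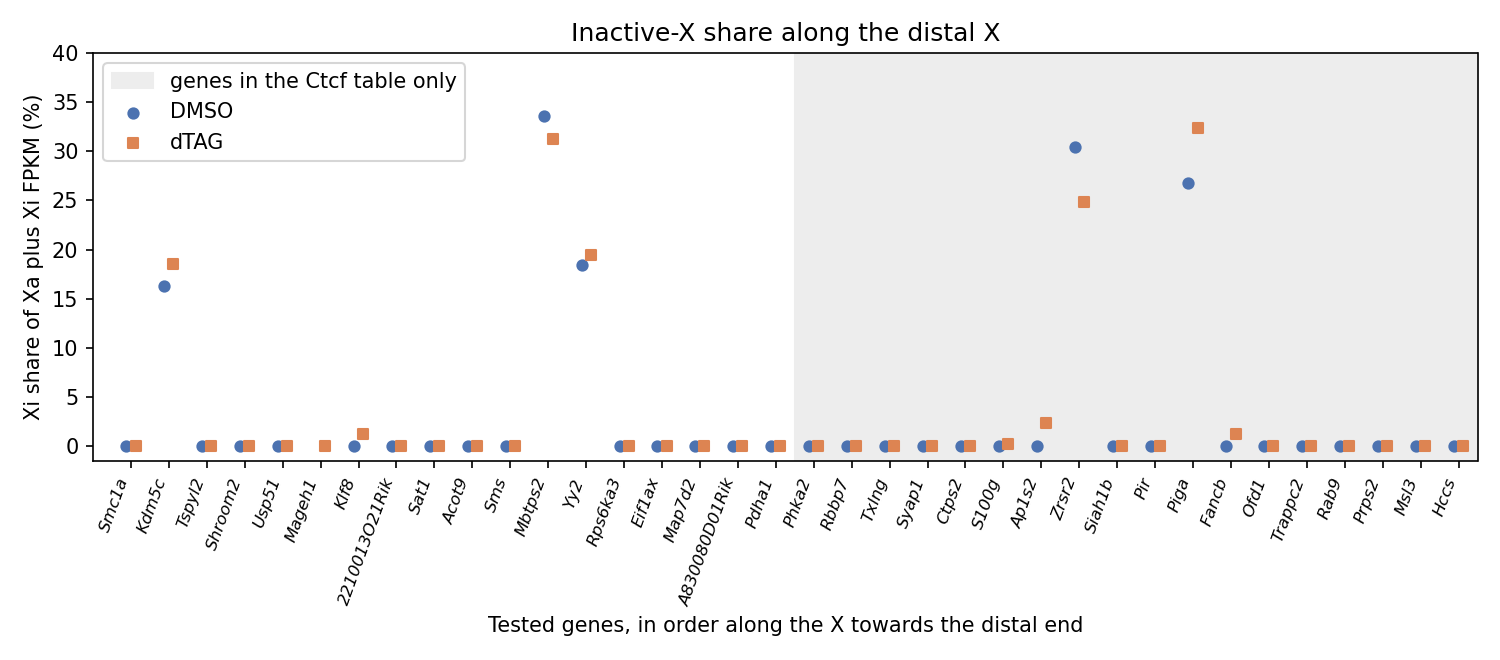
Xi share of Xa plus Xi FPKM (y axis, percent) for 36 tested genes in order along the distal X, with the 18 distal X genes on grey at the right and their 18 nearest proximal tested neighbours at the left. Circles are DMSO and squares dTAG, each a merged value. Kdm5c, Mbtps2 and Yy2 among the neighbours and Zrsr2 and Piga among the distal genes stand above 10%, and the others are at or near 0.

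The 18 nearest proximal tested genes, from Smc1a to Pdha1, showed a similar division. With each treatment 3 of them had a share of 10% or more: the histone demethylase gene Kdm5c (16.3% and 18.6%), the protease gene Mbtps2 (33.6% and 31.3%) and the transcription factor gene Yy2 (18.5% and 19.4%). None of the 3 moved by 5 points. These neighbours were also in the other tables, while the distal genes have values in the Ctcf table only. The 12 groups of the series are the 2 Ctcf degron groups and, in the other tables, Rad21 degron cells with DMSO or dTAG, WT cells and cells labelled XistpA, XRR KO, XRRa KO, XRRb XaKO, XRRb XiKO, XRRc XaKO and XRRc XiKO, all XEN cells of the same cross. Over these groups, whose tables may have been scaled separately, the Xi share of Mbtps2 ranged from 31.3% to 53.7% (median 44.2%), that of Yy2 from 18.5% to 52.3% (median 34.2%) and that of Kdm5c from 16.3% to 51.0%. Each was at 10% or more in 12 of 12 groups, and for each the 2 Ctcf degron groups had the lowest shares. For Mbtps2 the margin was small, with 33.6% in Ctcf degron cells with DMSO and 33.8% in WT cells. Pdha1, the last tested gene before the stretch, was at most 0.716%.

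On the active X no distal gene changed by the size of 1. With dTAG 0 of 18 rose and 0 fell, while 5.42% of all 277 tested genes rose and 0.722% fell. Values were higher with dTAG for 15 of the 18 (83.3%), against 79.1% of all tested genes, and the median change was 0.31 against 0.23 for all tested genes. Over the whole table Xa values were shifted upwards with dTAG, while the median Xi change of all tested genes was 0. Xa changes were therefore also read relative to the median of 0.23. By that measure 10 distal genes were above the median and 8 below, and their own median was 0.08 above it. At equal median Xa FPKM 10 distal genes were higher with dTAG, and Zrsr2, Siah1b, Fancb, Prps2 and Hccs turned to lower values. The 18 proximal neighbours had a median change of 0.22 with 7 above the median of all genes and 1 rise, Mageh1, which was listed at 0 with DMSO and at 2.70 FPKM with dTAG.

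**Figure D3:**
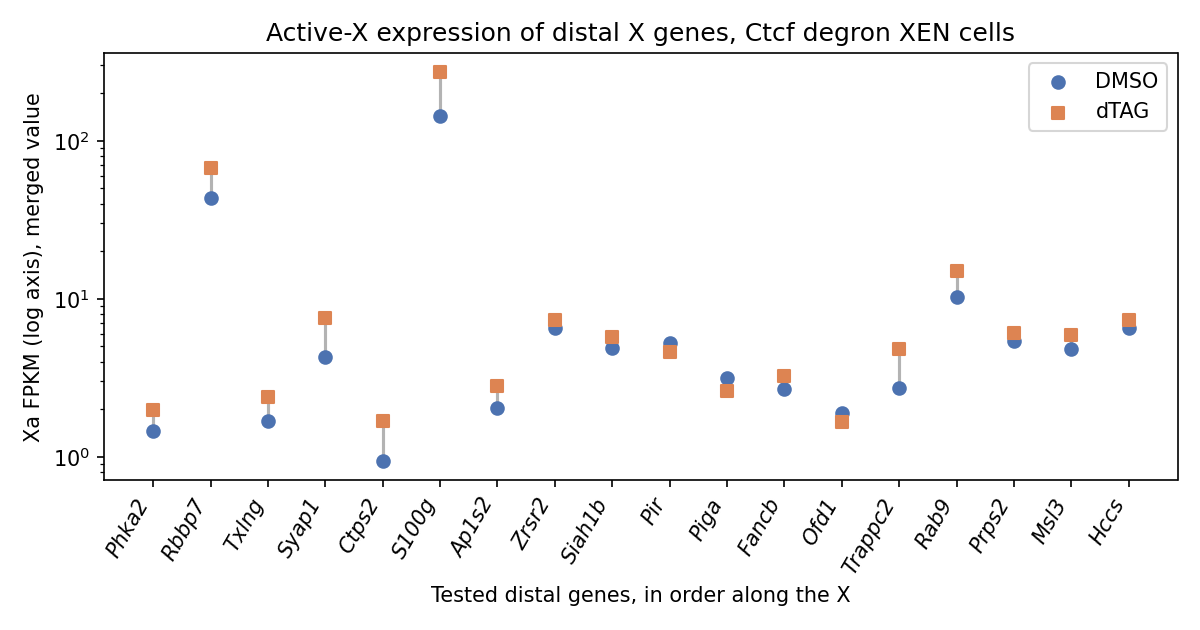
Xa FPKM (y axis, log scale) of the 18 tested distal X genes in order along the X, with circles for DMSO and squares for dTAG, each a merged value without error. S100g and Rbbp7 stand highest, and the dTAG value is the lower of the pair for Pir, Piga and Ofd1.

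S100g had the highest Xa level of the distal genes and the largest difference. It was listed at 144 FPKM with DMSO and 271 FPKM with dTAG, 1.88 times as high (log2 difference 0.91), and ranked 20th of 277 genes by this difference. In total expression it was 9th of 277. S100g overlaps Ctps2, which lies on the other strand, and Ctps2, a CTP synthase gene, was at 0.939 and 1.68 FPKM (0.60). The libraries kept no strand, so reads in the overlap cannot be told apart, and the low Ctps2 values may hold reads of S100g. Without S100g the summed Xa FPKM of the distal genes was 108 with DMSO and 148 with dTAG, and with it 252 and 419.

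Of 6 distal genes in the list of chromatin and transcription factors 4 were tested. Rbbp7, a histone-binding protein of histone deacetylase and Polycomb complexes, was listed at 43.2 FPKM on Xa with DMSO and 67.0 FPKM with dTAG (0.63). It has a near-identical copy in the transcript annotation, so its value is uncertain. Msl3, a subunit of a histone acetyltransferase complex, was at 4.81 and 5.91 FPKM (0.27), and Pir was at 5.22 and 4.62 FPKM (-0.16). Txlng, a syntaxin-binding protein, was at 1.68 and 2.39 FPKM (0.41), and it overlaps the much higher Rbbp7, so reads in the overlap cannot be told apart. Across the X, 28 genes of a wider chromatin list were tested, of which 1, Morf4l2, rose on Xa (1.51) and 0 fell. The median of that list was 0.12, and the values of Rbbp7 and Msl3 lay above it.

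Among vesicle traffic genes 4 of 7 were tested, and 4 had higher Xa values with dTAG, beside 79.1% of all tested genes. Their median difference was 0.63, beside 0.23 for all tested genes, and 0 of them reached the size of 1. Syap1, a synapse-associated protein, was at 4.31 and 7.52 FPKM (0.74). Trappc2, a subunit of the TRAPP tethering complex, was at 2.74 and 4.84 FPKM (0.72). Rab9, a GTPase of late endosomes also with a near-identical copy, was at 10.2 and 15.0 FPKM (0.54), and Ap1s2 was at 2.02 and 2.79 FPKM (0.39). Trappc2 overlaps Ofd1 in the annotation, and Ofd1, a centriole and cilium protein, was at 1.88 and 1.66 FPKM (-0.14). The overlapping pair thus differed in direction, with differences that were each below the size of 1.

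Of 6 enzyme genes 5 were tested, with a median Xa difference of 0.17. Hccs, which attaches haem to cytochrome c, was at 6.51 FPKM with DMSO and 7.39 FPKM with dTAG (0.17), and Prps2, a phosphoribosyl pyrophosphate synthetase, at 5.43 and 6.06 FPKM (0.15). Phka2, a regulatory subunit of phosphorylase kinase, was at 1.45 and 1.98 FPKM (0.35), and Piga and Ctps2 are described above. In a wider list of X-linked metabolic genes 31 were tested, of which 0 rose or fell on either allele, with an Xa median of 0.15. In the wider list of RNA processing and translation genes that includes Zrsr2, 25 were tested, and again 0 rose or fell on either allele (Xa median 0.05). With DMSO 9 genes of that list reached an Xi share of 10%, Zrsr2, Ddx3x and Eif2s3x among them.

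Fancb was at 2.70 and 3.23 FPKM on Xa (0.22), and Siah1b, which is in none of the lists, at 4.86 and 5.75 FPKM (0.22). Signalling genes were the largest group among the distal genes by number, and 0 of 13 reached the expression level. Of the 13 signalling genes 7 were listed at 0. The growth factor gene Figf was at 0.530 FPKM on Xa with DMSO and 0.057 FPKM with dTAG, and the endocytosis gene Reps2 at 0.069 and 0.307 FPKM. These values lie below the expression level, and no difference is read from them.

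In order along the X, the 7 tested genes from Phka2 to Ap1s2 all had higher Xa values with dTAG, by 0.35 to 0.91, with a median of 0.60. All 7 were above the median of all tested genes. Among them Ctps2 overlaps S100g, Txlng overlaps Rbbp7 and Ap1s2 overlaps Zrsr2, so these values may not be separate. The 11 from Zrsr2 to Hccs ranged from -0.24 to 0.72 with a median of 0.17, and 3 of them were above the median of all tested genes. This division was chosen after the values were seen and has no test. With a smaller size rule of 1.5-fold, 5 of the 18 (27.8%) rose on Xa: S100g, Syap1, Trappc2, Rbbp7 and Ctps2. Among all tested genes 21.3% rose by that size.

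**Figure D4:**
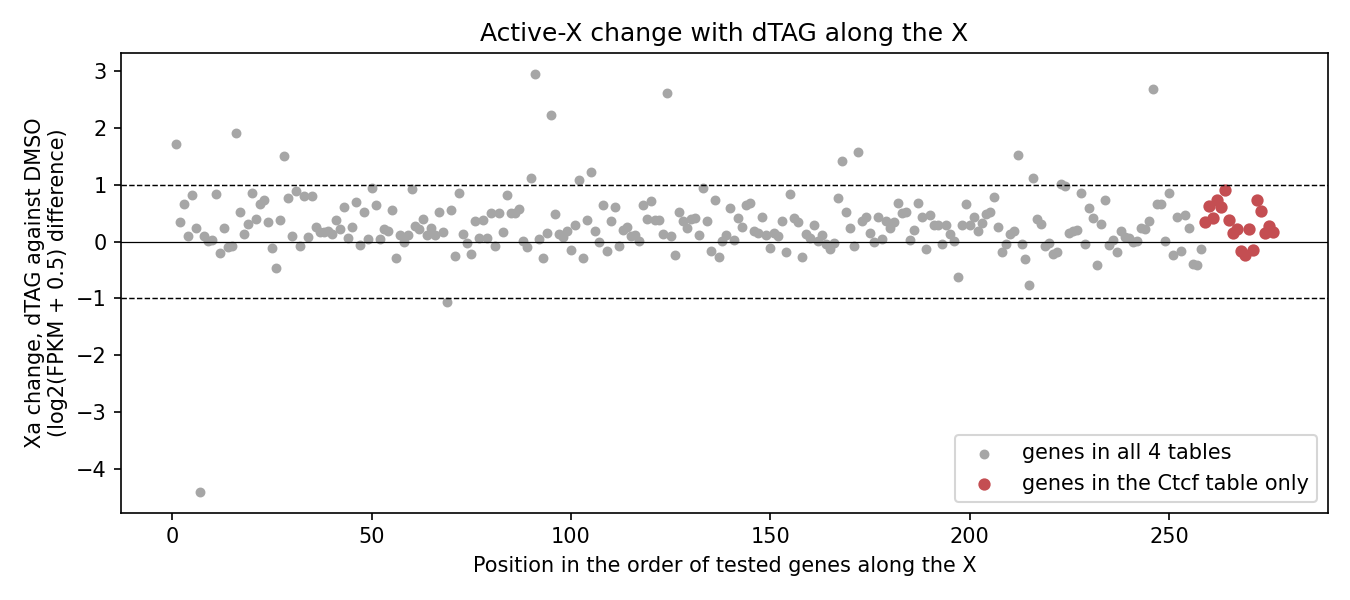
Xa change with dTAG against DMSO (y axis, difference of log2(FPKM + 0.5)) for the tested genes that could be placed, in order along the X (x axis). Red points are the 18 distal genes, grey points the genes in all 4 tables, and dashed lines mark a change of 1 in either direction. The distal genes lie between -0.24 and 0.91, within the range of the other genes.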

How the data were processed

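The authors deposited FPKM values for Xa and Xi in 4 tables. Smart-seq2 libraries of polyadenylated RNA were made per the labels' protocols. Tools listed in the submitters' processing notes are HISAT2 2.2.0, StringTie 2.1.1 and Trim Galore 0.6.4, with build mm9. For allele assignment the method is not given in sources used here. Per the file headers, columns name a treatment and allele. That they hold merged samples is taken from the word merged in the table's name. The planned limma test was therefore not run. The Ctcf columns name the treatment only and were assigned by the table's name. Among genes below 1 FPKM, at most 2 shared a ratio between treatments (within 0.001), so the depth is unknown and intervals are not given.

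Changes are differences of log2(FPKM + 0.5), which understate changes of low genes. Genes are said to have risen or fallen from a change of 1 upwards. Genes needed a mean Xa plus Xi FPKM of 1 or more. Distal genes at an Xi share of 10% or past the size rule, the 8 with the highest expression, Piga, Zrsr2, Rbbp7 and S100g were named with full values; other genes were named by role list or after their values were seen. Members and lists were chosen with earlier results of these data known. Gene order and promoters came from RefSeq GRCm38.p6, which placed 999 of 1006 genes. Near-identical copies were sought with minimap2 2.31-r1302 in GENCODE M21 transcripts (95% identity over 50% of the length). Calls were checked on simulated data. The planted changes were larger than the size rule and lay in genes well above the expression level. Low genes, steps from a listed 0 and the spread of replicates were thus not covered. The software was matplotlib 3.10.9, pandas 2.3.3, numpy 2.4.6 and Python 3.11.15.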

Additional observations from a re-analysis of the deposited data

How the results depend on the processing

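No paired analysis was possible because the deposited columns merge the samples of a treatment, so the replicate block and the analyses without single replicates were not run. With every alternative that kept the size of 1, 0 distal genes rose or fell on Xa. A size rule of 1.5-fold gave 5 rises among the distal genes and, among all tested genes, 59 rises and 4 falls on Xa and 4 rises and 7 falls on Xi. The rise of S100g on Xi was absent with a pseudocount of 1 (0 rises among distal and among all genes, and 1 fall on Xa among all genes) and when changes were centred on the median Xa change (0 rises). With a pseudocount of 0.1 there were 6 rises and 6 falls on Xi among all genes. Without a filter 4 genes fell on Xa and 2 rose on Xi. With a filter of 5 FPKM, which left 9 distal genes, 9 were higher on Xa, 5 of all genes rose and 1 fell there, and Zrsr2 remained the 1 distal gene at 10% or more with DMSO and with dTAG. That filter left 1 distal gene with a higher share and 1 that moved by 5 points. With the main filter 4 distal genes had a higher share and 1 a lower share, and 2 moved by 5 points or more. Among all 277 tested genes these counts were 36, 43 and 21. Scaling to equal median Xa FPKM turned the median Xa change of all genes from 0.23 to -0.013 and brought that of the distal genes to 0.083. Centring brought them to 0 and 0.077. Share rules of 5% and 20% changed no count of distal genes. Leaving out the microRNA entries could not change a count of tested distal genes, since both were listed at 0 throughout.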
